A study of Mus musculus with 6 samples.

Results

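The genes that hold cells to their neighbours were read in 6 cell lines grown out of mouse liver tumors. They were taken by symbol from the deposited table of transcript levels. The symbols covered the numbered cadherins (*Cdh*), the numbered claudins (*Cldn*), the zonula occludens scaffolds (*Tjp*), *Ocln*, *F11r*, and the desmosome genes *Dsp*, *Dsg2*, *Dsc2*, *Pkp1* to *Pkp4* and *Jup*. The rule found 50 of the 20856 genes with values, of which 18 were cadherins, 19 were claudins and 13 were the others. The choice used names and not levels, but it was made with earlier results of these data known. Each line came from a liver tumor of a young adult female C57BL/6 mouse that received, by hydrodynamic tail vein injection, a *Myc* transposon and a plasmid for Cas9 and a single guide RNA. The guide targeted *Trp53* in 3 lines (*Myc*; sg*Trp53*, written Myc;sgp53/Cas9 in the labels) and *Kmt2c*, which encodes the histone methyltransferase MLL3, in the other 3 (*Myc*; sg*Kmt2c*, written Myc;sgMll3/Cas9). All 6 lines therefore share the *Myc* transposon and Cas9, and neither genotype has both targeted genes untouched. The lines are not isogenic, each being a separate outgrowth passaged on collagen-coated plates until no fibroblasts were seen.

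Epithelial cells are joined by several kinds of contact. Adherens junctions are built on classical cadherins, whose tails bind catenins and through them actin. Tight junctions seal the space between cells with claudins and occludin, which the zonula occludens proteins tie to the cytoskeleton. Desmosomes use desmogleins and desmocollins, linked by plakoglobin and plakophilins to desmoplakin and on to keratin filaments. In the liver these contacts separate bile from blood at the edges of the bile canaliculus, and the balance of E-cadherin (*Cdh1*) and N-cadherin (*Cdh2*) is widely used to describe how epithelial a carcinoma line is.

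Levels are given as RPKM, reads on a gene scaled by its transcript length and by the reads on all listed genes, in the order of replicate 1, 2 and 3 of each genotype. The libraries held 5312182 to 6878625 reads on listed genes in the sg*Trp53* lines and 3680068 to 4704539 in the sg*Kmt2c* lines, so the sg*Kmt2c* libraries were all the shallower ones. A single read on a transcript of 2 kb was worth 0.0726 to 0.136 RPKM. *Trp53* itself was at 17.2, 17.6 and 19.4 RPKM with sg*Trp53* and 92.2, 124 and 121 RPKM with sg*Kmt2c* (log2 fold change 2.56, adjusted p = 0.014 from limma). *Kmt2c* was at 24.2, 18.4 and 19.2 RPKM against 19.7, 25.0 and 9.51 RPKM, and its level did not separate the genotypes (adjusted p = 0.819 from limma). A guide that cuts does not have to lower the transcript, so the *Kmt2c* level leaves the labels unchecked. Library sg*Kmt2c* 1 stood furthest from its group, with a chi-square per gene of 85.6 and 81.7 against the other two sg*Kmt2c* libraries, where other pairs of one genotype gave 28.5 to 48.4.

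Of the 50 junction genes, 21 reached 1 RPKM in at least 3 of the 6 lines and were tested. Among the 29 not tested, 4 had no read in any line (*Cdh4*, *Cdh19*, *Cdh26* and *Cldn5*) and 11 reached 1 RPKM in some line. In all, 18 genes stayed under 1 RPKM everywhere and 20 exceeded 10 RPKM in some line. The plot of levels by line shows 31 of the genes that reached 1 RPKM somewhere.

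**Figure D1:**
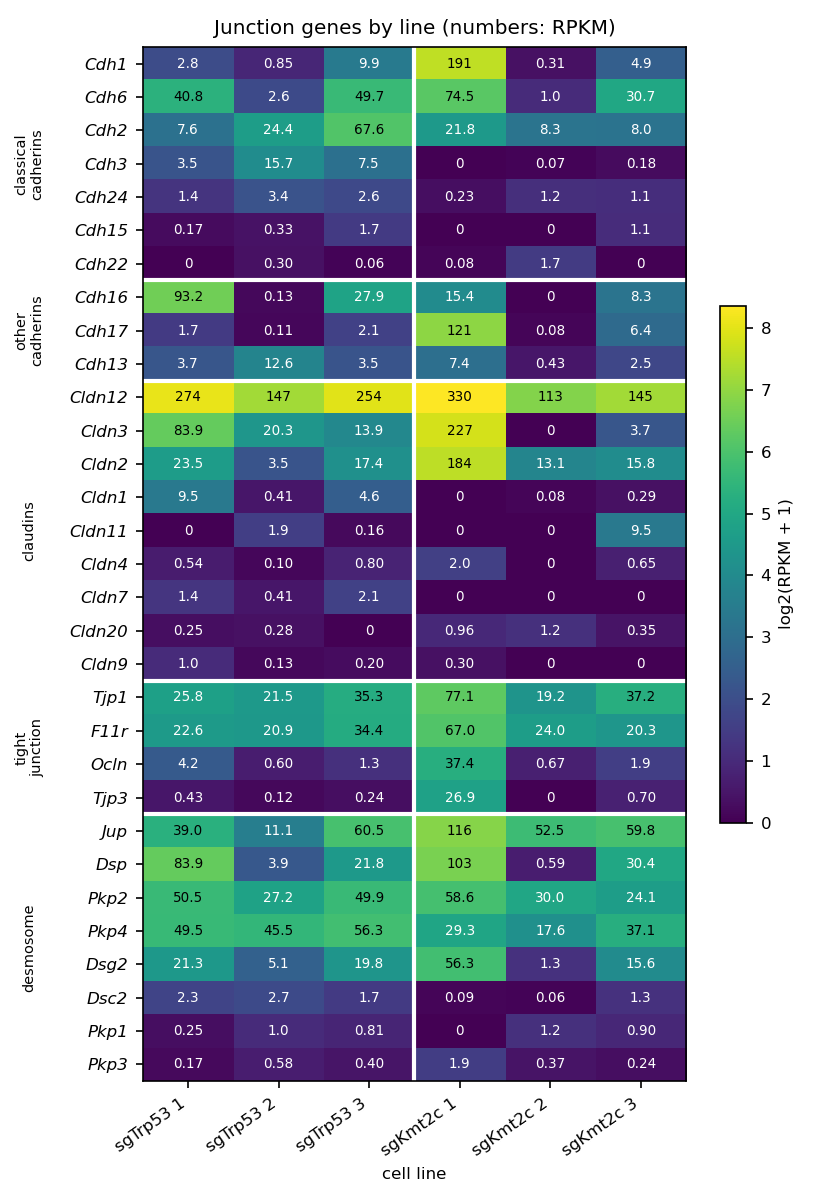
RPKM of 31 junction genes with at least 1 RPKM in some line (rows, grouped by role) in the 3 sgTrp53 and 3 sgKmt2c lines (columns), with colour on the log2(RPKM + 1) scale and the RPKM printed in each cell. The column of sgKmt2c 1 is the brightest and that of sgKmt2c 2 the darkest in many rows, while *Cdh3* is bright only in the 3 sgTrp53 columns.

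No junction gene passed an adjusted p of 0.05 in the comparison of the genotypes (limma on log2(RPKM + 1), fitted over 11617 genes). The smallest adjusted p among them was 0.145, that of *Cdh3*. Over all genes tested, 0.0516% were called higher with sg*Kmt2c* and 0.0775% lower, so calls were rare everywhere. With limma voom on reads recovered from the RPKM values, 0 junction genes passed as well. At an unadjusted p under 0.05, voom gave 0 higher and 3 lower, where 954 of all 11617 genes were under it in either direction. In the main test at that p, 0 junction genes were higher in the sg*Kmt2c* lines, where the background was 3.25% of all genes tested. Lower were 3 of 21 (14.3%), where the background was 5.34%. These 3 were *Cdh3*, *Dsc2* and *Pkp4*, of which *Cdh3* reached 1 RPKM in the sg*Trp53* lines alone. Levels of the genotypes were apart, with no overlap of lines, for those genes and for *Cdh24*, which makes 4 of 21 (19.0%) lower against 10.4% of all genes tested, and for 0 of 21 higher against 5.72%. With 3 lines against 3, an exact permutation test of a single gene cannot go under a two-sided p of 0.1.

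The sign of the comparison over all tested junction genes depended on single lines. Of the 21 genes, 8 had a log2 fold change above 0 and 13 below, with a median of -0.22, where the median of all genes tested was -0.09. The median became 0.53 without sg*Kmt2c* 2, 0.20 without sg*Trp53* 1 and -0.76 without sg*Kmt2c* 1. Without sg*Kmt2c* 1, 7 of the 21 genes had lower levels with no overlap, where the background was 15.9% of all genes tested. Without sg*Kmt2c* 2, 2 of the 21 had higher levels with no overlap, where the background was 10.8%. For 15 of the 21 genes (71.4%) the difference between genotypes was smaller than the range of the lines within either genotype, which held for 64.0% of all genes tested.

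**Figure D2:**
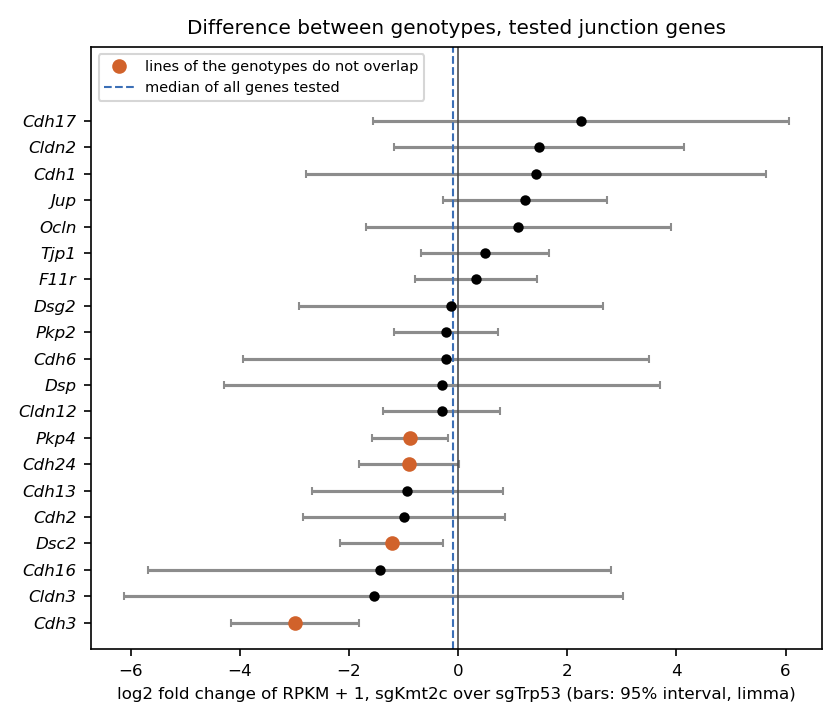
Log2 fold change (sgKmt2c over sgTrp53, on log2(RPKM + 1)) of 20 of the 21 tested junction genes with 95% intervals from limma, with the 4 genes whose lines do not overlap marked in orange and the median of all genes tested (-0.09) dashed. Intervals run across 0 for 17 genes and stay below it for *Cdh3*, *Dsc2* and *Pkp4*.

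Among the classical cadherins the smallest p was that of *Cdh3*, which encodes P-cadherin, a cadherin of basal and placental epithelia. *Cdh3* (GRCm38 chromosome 8, 106510913 to 106556908) was at 3.51, 15.7 and 7.45 RPKM with sg*Trp53* and at 0, 0.0683 and 0.177 RPKM with sg*Kmt2c*. These values rest on 85, 331 and 204 reads against 0, 1 and 3 reads, so every sg*Trp53* line lay above every sg*Kmt2c* line. Per library depth, its reads were 107-fold more frequent in the sg*Trp53* lines (95% exact interval 41.7 to 395, for counting error only). The log2 fold change was -2.99 (95% interval -4.16 to -1.82, adjusted p = 0.145 from limma), and it ranged from -3.46 to -2.52 when each line was left out in turn. *Cdh3* passed the filter on low values through the sg*Trp53* lines alone, as 125 of all genes tested did through one genotype, so it had to differ to be tested. None of the alternative settings brought its adjusted p under 0.05 (0.112 to 0.577).

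The gene for E-cadherin lies 46.4 kb from *Cdh3* on the same chromosome. *Cdh1* (GRCm38 chromosome 8, 106603351 to 106670246) was at 2.81, 0.849 and 9.86 RPKM with sg*Trp53* and 191, 0.306 and 4.86 RPKM with sg*Kmt2c*. Line sg*Kmt2c* 1 was far above the others and line sg*Kmt2c* 2 was the lowest of the 6, a 624-fold span within one genotype. This span rests on 3986 reads against 5 reads, so its size is uncertain. The log2 fold change of 1.42 had a 95% interval of -2.79 to 5.63 and became -0.62 without sg*Kmt2c* 1. The genotypes overlapped for *Cdh1* and not for *Cdh3*. Line sg*Kmt2c* 3, which had 3 reads of *Cdh3*, was at 4.86 RPKM of *Cdh1*, between the lowest and highest sg*Trp53* lines (0.849 and 9.86 RPKM).

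N-cadherin, the cadherin of neural and mesenchymal cells that hepatocytes also carry, was present in every line. *Cdh2* was at 7.62, 24.4 and 67.6 RPKM with sg*Trp53* and 21.8, 8.35 and 8.02 RPKM with sg*Kmt2c*. The groups overlapped and the highest line was sg*Trp53* 3 (log2 fold change -0.99, adjusted p = 0.722 from limma). The ratio of *Cdh1* to *Cdh2* RPKM was 0.369, 0.0347 and 0.146 with sg*Trp53* and 8.75, 0.0367 and 0.606 with sg*Kmt2c*. Only in sg*Kmt2c* 1 did E-cadherin exceed N-cadherin.

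*Cdh6*, which encodes the kidney cadherin of developing epithelia, was at 40.8, 2.64 and 49.7 RPKM with sg*Trp53* and 74.5, 1.03 and 30.7 RPKM with sg*Kmt2c*. In both genotypes replicate 2 stood alone at the bottom, by 18.8-fold and 72.3-fold under the highest line of its genotype, and the genotypes overlapped (log2 fold change -0.22, adjusted p = 0.967 from limma). *Cdh24*, a cadherin that binds catenins but is little studied, was at 1.38, 3.38 and 2.61 RPKM against 0.233, 1.19 and 1.11 RPKM. All of its sg*Kmt2c* values lay below the sg*Trp53* values, although the nearest lines were close (log2 fold change -0.91, adjusted p = 0.589 from limma). *Cdh24* overlaps *Gm20726*, which had at most 1 read in a line, and since the use of strand in counting is not given in the sources used here, the reads of such a pair may not be separable. The other 8 classical cadherins were not tested, and 6 of the 13 in this class stayed under 1 RPKM. Among these, the endothelial cadherin *Cdh5* had 1, 1 and 4 reads with sg*Trp53* and none in the sg*Kmt2c* lines, a level too low to describe beyond the absence of overlap.

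The other cadherins lack the catenin-binding tail of the classical ones. *Cdh17* encodes liver-intestine cadherin, an adhesion protein of intestinal epithelium that many liver tumors carry. It was at 1.66, 0.109 and 2.05 RPKM with sg*Trp53* and 121, 0.0784 and 6.35 RPKM with sg*Kmt2c*. Its highest and lowest lines were both sg*Kmt2c* lines, with 1980 reads in replicate 1 and 1 read in replicate 2. The log2 fold change was the largest upward one among the tested junction genes at 2.25, with a 95% interval of -1.56 to 6.06 (adjusted p = 0.712 from limma). *Cdh16*, the kidney-specific cadherin of tubules, had the opposite leader. It was at 93.2, 0.125 and 27.9 RPKM with sg*Trp53* and 15.4, 0 and 8.34 RPKM with sg*Kmt2c*. The highest line was sg*Trp53* 1, and replicate 2 of each genotype had at most 2 reads. The log2 fold change of -1.44 had a 95% interval of -5.68 to 2.80. *Cdh13*, a cadherin anchored by a lipid without a cytoplasmic tail, was at 3.68, 12.6 and 3.53 RPKM against 7.40, 0.430 and 2.47 RPKM, and here sg*Trp53* 2 was the highest line and sg*Kmt2c* 2 the lowest. *Cdh23* stayed under 1 RPKM and *Cdh26* had no read.

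Claudins were mostly silent, since 10 of 19 stayed under 1 RPKM in every line and only 3 were tested. *Cldn3*, a sealing claudin of hepatocytes and bile ducts, was at 83.9, 20.3 and 13.9 RPKM with sg*Trp53* and 227, 0 and 3.72 RPKM with sg*Kmt2c*. The sg*Kmt2c* lines held both extremes, with 1349 reads in replicate 1 and 0 reads in replicate 2, and this was the widest range of any tested junction gene within a genotype. *Cldn3* overlaps *Wbscr25*, which had at most 1 read in a line, so the same limit on strand holds for it. The log2 fold change of -1.55 (95% interval -6.11 to 3.01, adjusted p = 0.806 from limma) became 0.13 without sg*Kmt2c* 2 and -3.79 without sg*Kmt2c* 1. *Cldn2*, which forms paracellular pores for cations and water, was at 23.5, 3.52 and 17.4 RPKM against 184, 13.1 and 15.8 RPKM. Unlike *Cldn3* it was present in sg*Kmt2c* 2, near the level of sg*Kmt2c* 3, and the genotypes overlapped (log2 fold change 1.48, adjusted p = 0.719 from limma).

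*Cldn12*, a claudin that lacks the usual PDZ-binding end, was at 274, 147 and 254 RPKM with sg*Trp53* and 330.2, 113 and 145 RPKM with sg*Kmt2c*. It varied least of the 3 tested claudins, by at most 2.93-fold within a genotype. Its RPKM was computed on a listed length of 349 bases, where its longest coding transcript in GENCODE vM1 has 3597, so its level cannot be set beside those of other genes.

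*Cldn1*, the sealing claudin best known from skin and liver, was under the filter, and its lines did not overlap between the genotypes. It was at 9.49, 0.405 and 4.65 RPKM with sg*Trp53* and 0, 0.0835 and 0.288 RPKM with sg*Kmt2c*, on 188, 7 and 104 reads against 0, 1 and 4 reads. Every sg*Trp53* line lay above every sg*Kmt2c* line, although sg*Trp53* 2 came within a few reads (exact permutation p = 0.1, two-sided, the smallest that 3 against 3 can give). Its reads were 41.4-fold more frequent per depth in the sg*Trp53* lines (95% exact interval 17.5 to 128). *Cldn7*, a claudin of many simple epithelia, had 8, 2 and 13 reads with sg*Trp53* and no read in any sg*Kmt2c* line. Against a floor of 3 reads over the sg*Kmt2c* lines it was at least 5.31-fold lower there, with 1.44, 0.412 and 2.07 RPKM in the sg*Trp53* lines. *Cldn15*, which forms cation pores in the intestine, had 6, 2 and 5 reads against 0, 1 and 0 reads.

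In the opposite direction stood *Cldn20*, a claudin of unclear function, with 1, 1 and 0 reads with sg*Trp53* and 3, 3 and 1 reads with sg*Kmt2c*, a difference of a few reads on a gene that overlaps *Tfb1m*, which had up to 58 reads in a line. Among the 25 junction genes with a read but under the filter, the lines did not overlap for 4 that were lower in the sg*Kmt2c* lines (16.0%, *Cldn1*, *Cldn7*, *Cldn15* and *Cdh5*) and for 1 that was higher (4%, *Cldn20*). The background for such genes was 6.4% lower and 2.17% higher. The sg*Kmt2c* libraries were the shallower ones, with 21, 23 and 17 junction genes without a read against 12, 9 and 11 in the sg*Trp53* lines, and the part of depth in these counts was not tested. The remaining claudins with at least 1 RPKM in some line were *Cldn4*, *Cldn9* and *Cldn11*, the last of these, the claudin of myelin and testis, at 0, 0 and 9.51 RPKM with sg*Kmt2c* and 0, 1.91 and 0.155 RPKM in the sg*Trp53* lines.

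The genes for ZO-1 and JAM-A were carried by every line. *Tjp1*, which encodes ZO-1, was at 25.8, 21.5 and 35.3 RPKM with sg*Trp53* and 77.1, 19.2 and 37.2 RPKM with sg*Kmt2c*, with sg*Kmt2c* 1 highest and sg*Kmt2c* 2 lowest. *F11r*, which encodes the junctional adhesion molecule JAM-A, was at 22.6, 20.9 and 34.4 RPKM against 67.0, 24.0 and 20.3 RPKM. In both of these genes sg*Kmt2c* 1 lay above the other 5 lines, and the genotypes overlapped. The log2 fold changes were 0.49 and 0.33 with adjusted p-values of 0.77 and 0.831 (limma), and both became negative without sg*Kmt2c* 1 (-0.01 and -0.19).

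Occludin and ZO-3 varied more widely. *Ocln*, whose product spans the membrane at tight junctions, was at 4.17, 0.603 and 1.25 RPKM with sg*Trp53* and 37.4, 0.669 and 1.91 RPKM with sg*Kmt2c*. *Tjp3*, the gene for ZO-3, the scaffold most restricted to epithelia, was at 0.434, 0.124 and 0.240 RPKM against 26.9, 0 and 0.696 RPKM. In both genes sg*Kmt2c* 1 alone exceeded 10 RPKM, and the sg*Kmt2c* 2 line had 10 reads of *Ocln* and 0 reads of *Tjp3*. *Ocln* had a log2 fold change of 1.11 (95% interval -1.69 to 3.91, adjusted p = 0.779 from limma), which became -0.27 without sg*Kmt2c* 1. *Tjp3* was not tested, and it overlaps *Apba3*, which had up to 229 reads in a line.

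The desmosome held the most evenly carried junction genes and also some of the most variable. *Pkp4*, a plakophilin-like catenin found at adherens junctions and desmosomes, was at 49.5, 45.5 and 56.3 RPKM with sg*Trp53* and 29.3, 17.6 and 37.1 RPKM with sg*Kmt2c*. The sg*Trp53* lines were within 1.24-fold of each other and all lay above the sg*Kmt2c* lines (50.4 ± 5.48 against 28.0 ± 9.81 RPKM, SD, n = 3 lines each). The log2 fold change was -0.88 (95% interval -1.58 to -0.18, adjusted p = 0.499 from limma), and it stayed between -1.11 and -0.59 in every setting tried. *Dsc2*, the most widely expressed desmocollin, was at 2.30, 2.72 and 1.66 RPKM against 0.0917, 0.0586 and 1.26 RPKM, on 65, 67 and 53 reads against 2, 1 and 25 reads. The 3 sg*Kmt2c* values lay below the sg*Trp53* values, with sg*Kmt2c* 3 the nearest to them (log2 fold change -1.21, 95% interval -2.16 to -0.27, adjusted p = 0.491 from limma).

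Desmoplakin, the plaque protein that binds keratin filaments, and the desmoglein that pairs with *Dsc2* stood high and low in the same lines. *Dsp* was at 83.9, 3.95 and 21.8 RPKM with sg*Trp53* and 103, 0.594 and 30.4 RPKM with sg*Kmt2c*. *Dsg2* was at 21.3, 5.09 and 19.8 RPKM against 56.3, 1.27 and 15.6 RPKM, and it overlaps *Gm16090*, which had at most 2 reads in a line. For both, sg*Kmt2c* 1 was the highest line, sg*Kmt2c* 2 the lowest and sg*Trp53* 2 the next lowest, with spans of 173-fold and 44.4-fold within the sg*Kmt2c* lines. Neither difference between genotypes passed, and both changed sign without sg*Kmt2c* 2, to 1.43 for *Dsp* and 1.13 for *Dsg2*.

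Plakoglobin (*Jup*), which serves desmosomes and adherens junctions, and plakophilin 2 (*Pkp2*) were carried by every line. *Jup* was at 39.0, 11.1 and 60.5 RPKM with sg*Trp53* and 116, 52.5 and 59.8 RPKM with sg*Kmt2c*, with sg*Trp53* 2 lowest (log2 fold change 1.23, 95% interval -0.27 to 2.72, adjusted p = 0.631 from limma). *Pkp2* was at 50.5, 27.2 and 49.9 RPKM against 58.6, 30.0 and 24.1 RPKM (log2 fold change -0.22, adjusted p = 0.869 from limma). Line sg*Kmt2c* 2 thus had *Jup* at 52.5 RPKM and *Pkp2* at 30.0 RPKM while *Dsp*, *Dsg2* and *Dsc2* stood at 0.594, 1.27 and 0.0586 RPKM. *Pkp1* and *Pkp3*, the remaining plakophilins, stayed under 2 RPKM in all lines.

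The lines within a genotype differed more for junction genes than for genes at large. The range between the highest and lowest of 3 lines, on the log2(RPKM + 1) scale, had a median of 1.69 in the sg*Trp53* lines and 2.14 in the sg*Kmt2c* lines over the 21 tested junction genes, where all genes tested had medians of 0.49 and 0.79. The range exceeded 2 for 11 of 21 junction genes (52.4%) in the sg*Kmt2c* lines and for 8 of 21 (38.1%) in the sg*Trp53* lines, against 11.8% and 5.38% of all genes tested. These counts are descriptions of the same 6 libraries and carry no test. The range was wider among the sg*Kmt2c* lines for 16 of 21 junction genes (76.2%) and for 70.7% of all genes tested, so the wider spread of that genotype was not particular to junction genes.

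**Figure D3:**
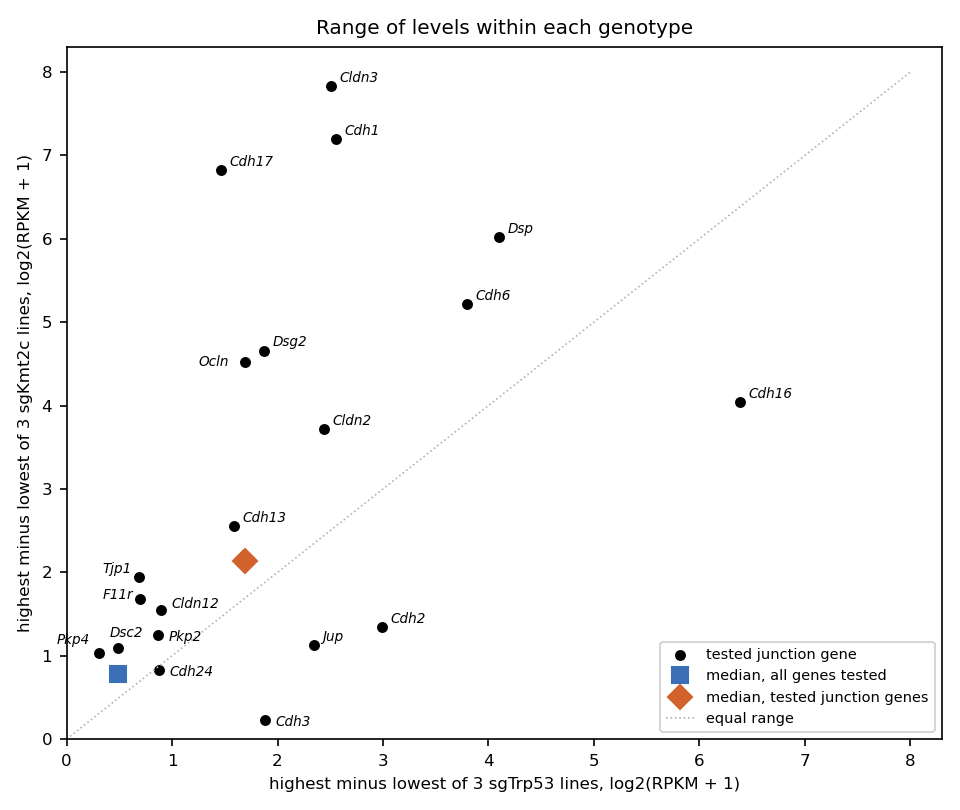
Difference between the highest and lowest of 3 lines on the log2(RPKM + 1) scale, in the sgTrp53 lines (horizontal) and the sgKmt2c lines (vertical), for 20 of the 21 tested junction genes, the median of the 21 (1.69 and 2.14) and the median of all genes tested (0.49 and 0.79). *Cldn3*, *Cdh1* and *Cdh17* lie high on the sgKmt2c axis, *Cdh16* far out on the sgTrp53 axis, and *Pkp4*, *Dsc2* and *Cdh24* near the median of all genes.

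The spread followed particular lines. Line sg*Kmt2c* 1 was the highest for 14 of 21 tested junction genes (66.7%), where it was the highest for 23.6% of all genes tested. Line sg*Kmt2c* 2 was the lowest for 12 of 21 (57.1%), against 17.8% of all genes, and it shared the bottom with sg*Trp53* 2 as the lowest pair for 10 of 21 (47.6%), against 9.41%. The median level of the 21 genes was 4.56, 3.47 and 4.51 on the log2(RPKM + 1) scale with sg*Trp53* and 6.09, 1.13 and 4.05 with sg*Kmt2c*, whereas the median of all genes tested lay between 3.85 and 3.95 in every line. The number of junction genes with at least 10 RPKM was 13, 11 and 14 with sg*Trp53* and 18, 8 and 11 with sg*Kmt2c*.

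**Figure D4:**
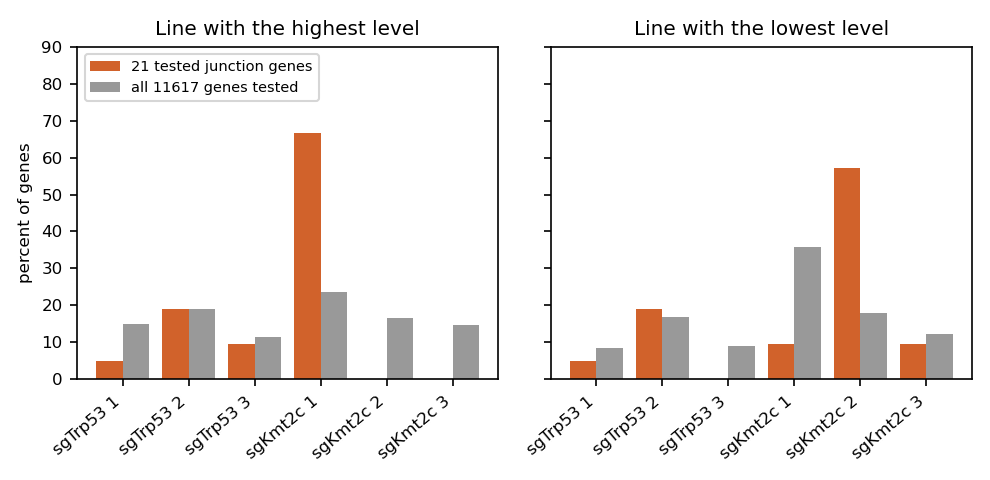
Percent of genes for which each line has the highest (left) or lowest (right) level, for the 21 tested junction genes (orange) and all 11617 genes tested (grey). Line sgKmt2c 1 is highest for 66.7% of the junction genes and sgKmt2c 2 lowest for 57.1%, against 23.6% and 17.8% of all genes.

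Of the 20 junction genes over 10 RPKM in some line, 12 had sg*Kmt2c* 1 as their highest line and sg*Kmt2c* 2 among their lowest 2. Among them were *Cdh1*, *Cdh6*, *Cdh17*, *Cldn2*, *Cldn3*, *Cldn12*, *Dsp*, *Dsg2*, *Ocln*, *Tjp1* and *Tjp3*. The order was read from these same levels, and its share over all genes is not given here. Promoters of 8 of the 12 were in the RefSeq promoter table (GRCm38.p6), which holds 250 bases before and 50 bases after a transcript start. The letters CAGGTG, or CACCTG on the other strand, are those bound by zinc-finger repressors of the Snail and Zeb families, and were searched on both strands. They stood in the promoters of 4 of the 8, those of *Cldn3*, *Dsp*, *Ocln* and *Tjp3*, which are printed because these genes share the line order above and hold the match, shown in capitals. The letters were also in 10 of 31 junction genes with a promoter in the table (32.3%), in 22.6% of all 27025 genes and in 20.2% of all 32851 promoters. A match describes the sequence and not a site in use.
*Cldn3* (chr5:134985964-134986263, plus strand): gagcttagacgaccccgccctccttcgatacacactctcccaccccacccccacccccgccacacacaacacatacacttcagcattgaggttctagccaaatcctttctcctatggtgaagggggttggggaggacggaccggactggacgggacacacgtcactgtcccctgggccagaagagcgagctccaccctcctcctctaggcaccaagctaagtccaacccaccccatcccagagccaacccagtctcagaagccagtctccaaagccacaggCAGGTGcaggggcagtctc
*Dsp* (chr13:38151044-38151343, plus strand): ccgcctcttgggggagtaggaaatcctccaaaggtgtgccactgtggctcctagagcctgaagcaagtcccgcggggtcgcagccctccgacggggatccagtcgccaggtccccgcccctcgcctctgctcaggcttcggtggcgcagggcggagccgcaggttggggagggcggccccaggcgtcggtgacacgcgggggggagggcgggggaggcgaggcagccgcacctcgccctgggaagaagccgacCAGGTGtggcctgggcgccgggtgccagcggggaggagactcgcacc
*Ocln* (chr13:100552449-100552748, minus strand): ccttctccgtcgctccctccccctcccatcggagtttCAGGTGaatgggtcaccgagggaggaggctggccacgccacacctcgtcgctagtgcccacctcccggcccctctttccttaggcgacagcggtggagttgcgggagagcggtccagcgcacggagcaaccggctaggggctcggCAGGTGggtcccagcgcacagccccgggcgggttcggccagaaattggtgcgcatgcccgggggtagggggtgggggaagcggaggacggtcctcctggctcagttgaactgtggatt
*Tjp3* (chr10:81291218-81291517, minus strand): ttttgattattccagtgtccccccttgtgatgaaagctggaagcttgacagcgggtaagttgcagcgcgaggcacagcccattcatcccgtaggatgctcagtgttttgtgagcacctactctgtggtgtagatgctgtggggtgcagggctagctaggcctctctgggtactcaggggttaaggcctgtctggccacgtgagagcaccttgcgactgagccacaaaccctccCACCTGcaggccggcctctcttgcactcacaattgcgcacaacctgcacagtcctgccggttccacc

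Genes known to act on junction genes were read as a list of 28, of which 17 were tested and none passed the adjusted p. At an unadjusted p under 0.05, 2 of the 17 were higher and 1 lower with sg*Kmt2c*, against 3.25% and 5.34% of all genes tested. *Twist1*, a mesenchymal transcription factor, was at 3.65, 7.56 and 2.07 RPKM with sg*Trp53* and 0, 0.671 and 0.145 RPKM with sg*Kmt2c*, with no overlap (log2 fold change -2.0, adjusted p = 0.328 from limma). *Twist1* passed the filter on low values through the sg*Trp53* lines alone, so it had to differ to be tested. *Cdx2*, an intestinal transcription factor, was at 1.60, 6.4 and 8.99 RPKM against 16.1, 16.9 and 32.6 RPKM, with no overlap (log2 fold change 1.92, adjusted p = 0.431 from limma). *Hnf4a*, the master regulator of hepatocyte genes, was at 24.7, 3.49 and 15.8 RPKM against 1186, 0.629 and 169.9 RPKM, so that it was highest in sg*Kmt2c* 1 and lowest in sg*Kmt2c* 2, with sg*Trp53* 2 next. *Klf4*, an epithelial factor, was also among the highest by mean RPKM, at 80.4, 43.1 and 35.1 RPKM against 48.4, 155 and 238 RPKM. *Hnf4a* and *Klf4* were listed with 431 and 859 bases, where their longest coding transcripts in GENCODE vM1 have 4362 and 3040, so their levels can be compared between lines and not with other genes. Of the 5 Snail and Zeb factors in the list, singled out after their values were seen, *Snai1* was at 1.52, 52.8 and 10.7 RPKM against 1.31, 15.2 and 18.6 RPKM, *Snai2* at 0.0807, 5.83 and 4.36 RPKM against 0, 18.3 and 2.76 RPKM and *Zeb2* at 2.66, 11.5 and 10.1 RPKM against 1.03, 4.79 and 3.98 RPKM. Line sg*Kmt2c* 1 was the lowest for 4 of the 5, against 35.9% of all genes tested, and sg*Trp53* 2 the highest for 3, against 19%. *Snai3* had the opposite order, at 1.44, 0 and 2.56 RPKM against 4.54, 0.171 and 1.62 RPKM, with sg*Kmt2c* 1 highest and sg*Trp53* 2 lowest. Line sg*Kmt2c* 2, the lowest for most tested junction genes, was the highest for 1 of the 5, against 16.6% of all genes tested. Some of these ranks rest on few reads, since sg*Kmt2c* 1 had 10 reads of *Snai1* and 0 of *Snai2*, where sg*Trp53* 1 had 15 and 1. The part of these factors in the junction levels was not tested.

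Genes whose products work beside the junction proteins were read as further lists, and no gene of them passed the adjusted p. Among the 12 tested adherens junction partners 6 had a log2 fold change above 0 and 6 below (median 0.01), and the 3 with the highest mean RPKM as deposited were *Ctnnb1*, *Mllt4* and *Ctnna1*, which encode β-catenin, afadin and α-catenin. *Ctnnb1* and *Mllt4* were listed with 364 and 822 bases, where their longest coding transcripts have 3623 and 7732, so no order between these genes is read from the values. *Ctnnb1* was at 2410.4, 2613 and 2752 RPKM with sg*Trp53* and 3249, 2788 and 3080.4 RPKM with sg*Kmt2c*, with no overlap (log2 fold change 0.23, adjusted p = 0.743 from limma). Among the 12 tested partners the lines did not overlap for 2 that were higher with sg*Kmt2c*, *Ctnnb1* and *Lima1*, and for 0 that were lower. The background was 5.72% of all genes tested higher and 10.4% lower. *Ctnna1* was at 133, 153 and 161 RPKM against 183, 104 and 108 RPKM. These catenins were thus present both in sg*Kmt2c* 1, where *Cdh1* was at 191 RPKM, and in sg*Kmt2c* 2, where *Cdh1* was at 0.306 RPKM.

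Of 16 tested tight junction partners, 4 were above 0 and 12 below (median -0.29). Some of them had the line order of many junction genes, which was thus not particular to the junction genes. *Cgn* was at 26.6 RPKM in sg*Kmt2c* 1 and 0.219 RPKM in sg*Kmt2c* 2, its highest and lowest lines, and *Crb3* at 27.2 and 0 RPKM. Others, such as *Magi3* and *Mpdz*, did not have this order. *Mpdz*, a scaffold with many PDZ domains, was at 9.04, 14.6 and 9.70 RPKM with sg*Trp53* and 0, 8.77 and 8.56 RPKM with sg*Kmt2c*, with no overlap and no read in sg*Kmt2c* 1 (adjusted p = 0.691 from limma). The partners with the highest mean RPKM as deposited were *Prkci*, *Inadl* and *Sympk*, but *Prkci* and *Inadl* were listed with 722 and 252 bases, where their longest coding transcripts have 4490 and 7340, so this is no order of their levels. The polarity kinase gene *Prkci* was at 493, 281 and 555 RPKM against 233, 164 and 285 RPKM, and the genotypes overlapped. Of 9 desmosome partners only 2 were tested. *Perp*, known both as a desmosome membrane protein and as a target gene of p53, was at 42.9, 67.8 and 21.8 RPKM against 151, 225 and 85.6 RPKM, with no overlap (log2 fold change 1.81, adjusted p = 0.422 from limma). *Ppl*, which encodes the plaque protein periplakin, was at 30.6, 9.13 and 29.0 RPKM against 47.0, 24.5 and 19.8 RPKM. Of 17 connexins, which form gap junctions, 4 were tested, and *Gjc1* was at 5.69, 5.63 and 14.7 RPKM against 0, 2.42 and 0.983 RPKM, with no overlap (log2 fold change -2.23, adjusted p = 0.388 from limma). The connexin with the highest mean level was *Gja1*, the gene for connexin 43, at 14.8, 24.3 and 44.3 RPKM against 10.2, 84.1 and 46.5 RPKM.

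Markers of cell types also differed between the lines. The 7 epithelial markers, all tested, summed to 1134, 149 and 965 RPKM with sg*Trp53* and to 6677, 461 and 860.5 RPKM with sg*Kmt2c*, with none past the adjusted p. A keratin gene among them was listed with 690 bases, where its longest coding transcript has 4094, so it weighs more in the sum. The keratin *Krt8* was at 431, 9.27 and 265 RPKM against 1662, 140.4 and 327 RPKM, and *Krt18*, its partner in simple epithelia, at 342, 14.2 and 223 RPKM against 2065, 89.3 and 167 RPKM. *Krt19*, the bile duct keratin, was at 214, 37.9 and 223 RPKM against 1866, 7.06 and 166 RPKM, and *Epcam*, an adhesion protein of epithelia outside the mature hepatocyte, at 0.964, 0.369 and 2.42 RPKM against 27.0, 0.399 and 6.88 RPKM. All 4 were highest in sg*Kmt2c* 1. *Cd24a*, a surface glycoprotein of progenitor and epithelial cells, went the other way, at 120.1, 84.7 and 157 RPKM against 65.2, 223 and 186 RPKM, with sg*Kmt2c* 1 lowest and sg*Kmt2c* 2 highest. The mucin gene *Muc1* was at 3.88, 1.93 and 0.842 RPKM against 0.947, 0.363 and 1.36 RPKM, with sg*Trp53* 1 highest. The 11 fibroblast and stellate markers, 5 of them tested and none past the adjusted p, summed to 18.7, 996 and 292 RPKM with sg*Trp53* and 0.282, 156 and 121 RPKM with sg*Kmt2c*, with *Lrat* at 0 in every line. The largest of them was *Col3a1*, at 3.37, 814 and 22.4 RPKM against 0.0672, 115 and 92.9 RPKM. Another collagen gene of this list was listed with 850 bases, where its longest coding transcript has 5347, so it weighs more in the sum. The line with the highest epithelial sum was thus the one with the lowest fibroblast sum, and it was also the one highest for most tested junction genes. Line sg*Kmt2c* 2, the lowest for most tested junction genes, had neither the lowest epithelial sum nor the highest fibroblast sum, both of which were in sg*Trp53* 2. In a bulk library a smaller share of cells of a type and less RNA per cell cannot be told apart, and the part of these markers in the junction levels was not tested.

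Hepatocyte markers were low in most lines. Of 10 hepatocyte markers 4 were tested, and the sum was 26.2, 20.2 and 57.8 RPKM with sg*Trp53* and 4430, 3.74 and 166 RPKM with sg*Kmt2c*, nearly all of the highest sum being *Apob*, which was listed with 1118 bases where its longest coding transcript has 13934, so that it outweighs the others in the sum. Albumin (*Alb*) was at 1.28, 0.644 and 1.14 RPKM against 4.36, 0.797 and 1.60 RPKM. The 7 markers of bile duct and progenitor cells summed to 927, 91.8 and 1012 RPKM against 3488, 91.7 and 431 RPKM. This sum also holds the keratin gene listed with 690 bases, where its longest coding transcript has 4094. Endothelial markers were at or near 0, with sums of 0.353 to 0.906 RPKM across the sg*Trp53* lines and 0.360 to 1.27 RPKM in the sg*Kmt2c* lines and no read for *Erg* or *Emcn*. The 7 immune markers summed to 30.7 to 67.7 RPKM and 30.9 to 71.3 RPKM, of which *Cd3e* and *Cd79a* had no read and the pan-leukocyte gene *Ptprc* was at 0.0286, 0.0655 and 0.0506 RPKM against 0, 0 and 0.0408 RPKM. Of the 3 immune markers tested, none passed the adjusted p and all had lines that did not overlap. In this count 1 was higher and 2 were lower, against 5.72% and 10.4% of all genes tested. *Csf1r* passed the filter on low values through the sg*Trp53* lines alone, so it had to differ to be tested. *Cd14*, a receptor for bacterial products that liver cells can also express, was higher at 11.4, 11.6 and 13.6 RPKM against 70.3, 30.7 and 34.5 RPKM, while *Csf1r*, at 10.00, 1.70 and 8.33 RPKM against 0.932, 0 and 0.967 RPKM, and *Lyz2*, at 29.0, 17.1 and 45.3 RPKM against 0, 0.214 and 12.4 RPKM, were lower. Their part in the junction levels was not tested.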

How the data were processed

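RNA-seq of 6 cell lines was analysed, 3 per genotype, grouped by the sample labels. The authors trimmed reads with Trimmomatic, aligned them to GRCm38 with STAR, counted them with HTSeq and deposited RPKM values, called FPKM in the paper's methods. The deposited RPKM table has 21065 rows and 6 further sample columns that were not used. The authors' deposited table of their own DESeq2 comparison (fold changes and p-values) was not used. RPKM multiplied by length gave whole reads for 100% of values above 0 (tolerance 0.01 of a read), from which depths and read counts were recovered. The deposited sample sheets place all 6 libraries on the same 2 lanes of 1 flow cell, and dates of culture and extraction are not given in the sources used here.

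The test was limma 3.58.1 in R 4.3.3 (eBayes with a mean-variance trend, Benjamini-Hochberg adjustment over all genes tested) on log2(RPKM + 1), over 11617 genes with at least 1 RPKM in at least 3 of 6 libraries. Fold changes on this scale understate the change of low genes. The same test on recovered reads with voom called 4 of all genes against 15 in the main test. The code of the test was run on simulated reads with known changes. Exact intervals of read ratios cover counting error only, and permutation tests are exact and two-sided. P-values measure the spread between these lines. Genes named by line are junction genes whose lines did not overlap, with an unadjusted p under 0.05, above 10 RPKM in some line, or best known for their role. The genes of other lists are named where they passed the adjusted p, where their lines did not overlap at a log2 fold change past 1 in size, or as the 3 highest by mean RPKM, a few of these genes are not reported here singly, and the text names exceptions. *Krt8*, *Epcam*, *Alb*, *Ptprc* and the marker genes at 0 were named as defining markers, and *Ctnna1* and *Mllt4* as the highest. The junction genes and all lists were chosen with earlier results of these data known. Coordinates are those of the deposited table (GRCm38), promoters are from RefSeq (GRCm38.p6), and lengths were compared with GENCODE vM1, of which 2 of the 50 junction genes and 12 of 134 genes in the other lists had a listed length under 0.5 of the longest. Alternatives changed the pseudocount, the filter, the scaling, the moderation, the replicate block, each line left out, and a merge of sg*Kmt2c* 2 with sg*Kmt2c* 3, which the labels call 2A and 2T1. The study gives each line of a genotype its own mouse, while these names share a number, and the merge gives the values if they were 1 sample.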

Additional observations from a re-analysis of the deposited data

How the results depend on the processing

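No junction gene passed the adjusted p of 0.05 (limma) under any of the alternatives. Counted at an unadjusted p under 0.05, an alternative added after the data were seen, 3 were lower, against 5.34% of all genes. Under the replicate block 1 of 21 was higher and 5 were lower, against 3.7% and 5.64% of all genes. Same-numbered lines correlated in their deviations from the group means at 0.192, 0.399 and 0.0316. For sg*Trp53* 1 and 2 the best match among the sg*Kmt2c* lines had the same number, and for sg*Trp53* 3 it did not. The labels give no pairing beyond these numbers, so the replicate block is given only as an alternative. Under the replicate block 0 of all genes were called, against 15. Leaving out a line called 0 genes each, other than 8 without sg*Kmt2c* 1. Without the filter, 1 junction gene of 46 was higher and 8 were lower with no overlap, against 4.32% and 8.84% of all genes. Leaving out each line gave 0 to 2 of 21 higher and 4 to 7 lower, against 7.96% to 11.4% and 14.3% to 21% of all genes, and the median log2 fold change ran from -0.76 to 0.53. With sg*Kmt2c* 2 and sg*Kmt2c* 3 merged the median was 0.32, and the log2 fold changes of *Cdh6*, *Dsg2* and *Dsp* became 0.32, 0.41 and 0.35. Of the 20 genes taken singly here, 10 changed sign at least once and 10 never did, and the cause was not tested. By left-out line the ranges of the genes that changed sign were -0.62 to 2.98 for *Cdh1*, -1.44 to 1.31 for *Cdh6*, -0.76 to 0.0146 for *Cldn12*, -3.79 to 0.13 for *Cldn3*, -1.20 to 1.13 for *Dsg2*, -1.58 to 1.43 for *Dsp*, -0.19 to 0.65 for *F11r*, -0.27 to 1.99 for *Ocln*, -0.59 to 0.0371 for *Pkp2* and -0.00827 to 0.97 for *Tjp1*. Depth limits the genes under 1 RPKM, where a few reads decide whether lines overlap.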
